A study of Mus musculus with 4 samples.

Results

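The neighbouring imprinted domains at the distal end of mouse chromosome 7, named for Cdkn1c and Kcnq1ot1 and for H19 and Igf2, were followed in 4 mouse embryonic stem cell samples. The array's names CDKN1C, PHLDA2, SLC22A18, KCNQ1OT1, ASCL2, H19, IGF2, TSSC4, NAP1L4 and OSBPL5 were chosen, written below as mouse symbols, and every array probe carrying one of these names was taken, which gave 16 of 45281 probes for 9 of the 10 genes. No probe carried the name Kcnq1ot1, and the gene is not analysed here under that name. Expression was read on Illumina bead arrays. The 2i-derived group held 2i-RFP+ and 2i-RFP-, both labelled C57/B6 at passage 5 and measured on 2 arrays each. The standard-derived group held AFF204#21, labelled C57/B6 at passage 11, and R1, labelled 129 at passage 26, on 1 array each. All samples were embryonic stem cells kept on mouse embryonic fibroblast feeders under standard culture without 2i after derivation, 2i being the usual name of a medium that inhibits MEK and GSK3. The labels do not state what RFP reports. The stems of their array names place 2i-RFP+ and 2i-RFP- under 1 shared line name, so they may be the same line, and passage number and derivation cannot be told apart.

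In an imprinted domain, genes are expressed mainly from the allele of 1 parent, and the choice is set by DNA methylation laid down in the germ line. The long RNA Kcnq1ot1 starts inside the gene Kcnq1 on the unmethylated paternal allele and silences flanking genes in cis, so that Cdkn1c, Phlda2 and Slc22a18 are expressed mainly from the maternal allele. In the adjoining domain H19 is expressed from the maternal and Igf2 from the paternal allele, through shared enhancers and an insulator that binds CTCF on the maternal allele. Imprints are known to be unstable in cultured mouse embryonic stem cells. Total RNA levels do not show which allele was transcribed.

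Levels are given as normalized log2 intensity (below, log2 units), a scale on which 1 unit is a factor of 2, or as raw bead intensity. A probe was taken as detected on an array where its detection p, 1 minus the deposited detection score, lay under 0.05. Between 42.3% and 43.9% of probes were detected per array. All 10 listed embryonic stem cell markers were detected, and their summed linear level, to which bright genes such as Dppa5a contribute most, was 93899.6 and 94858.9 in 2i-RFP+ and 2i-RFP-, against 93250.3 and 100175 in AFF204#21 and R1. Single markers differed more: Zfp42 had 9.48 and 9.67 log2 units in 2i-RFP+ and 2i-RFP-, against 9.29 in AFF204#21 and 12.83 in R1. Over all 14572 genes tested the median difference of the 2i-derived from the standard-derived samples was -0.02 log2 units, and over the 868 genes of chromosome 7 it was -0.002. Chromosome X stood apart, with a median of 0.60 over 382 genes. In bulk RNA, fewer cells expressing a gene and less RNA per cell cannot be told apart.

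Promoter sequences are shown for the genes whose probes differed together between the 2i-derived samples, and for the RNA gene known to silence them in cis. They run from 250 bases before to 50 bases after the annotated start, 5′ to 3′ on the gene's strand, from RefSeq on GRCm38.p6. That table held 12 promoters for 7 of the members and none for Cdkn1c, H19 and Nap1l4. Capitals mark CG dinucleotides, the sites of DNA methylation.
Slc22a18, chr7:143473539-143473838, plus strand: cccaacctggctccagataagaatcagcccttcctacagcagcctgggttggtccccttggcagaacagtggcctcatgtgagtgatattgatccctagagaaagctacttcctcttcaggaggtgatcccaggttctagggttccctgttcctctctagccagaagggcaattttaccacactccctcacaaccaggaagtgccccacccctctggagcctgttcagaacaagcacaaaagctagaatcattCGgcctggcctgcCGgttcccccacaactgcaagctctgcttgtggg
Phlda2, chr7:143502475-143502774, minus strand: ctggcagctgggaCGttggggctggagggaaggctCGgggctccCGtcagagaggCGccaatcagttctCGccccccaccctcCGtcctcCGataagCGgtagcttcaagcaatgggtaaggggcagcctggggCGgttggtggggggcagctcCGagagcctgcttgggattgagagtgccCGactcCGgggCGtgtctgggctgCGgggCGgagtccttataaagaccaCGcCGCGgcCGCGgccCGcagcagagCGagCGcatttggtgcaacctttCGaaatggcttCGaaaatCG
Kcnq1ot1, chr7:143296498-143296797, minus strand: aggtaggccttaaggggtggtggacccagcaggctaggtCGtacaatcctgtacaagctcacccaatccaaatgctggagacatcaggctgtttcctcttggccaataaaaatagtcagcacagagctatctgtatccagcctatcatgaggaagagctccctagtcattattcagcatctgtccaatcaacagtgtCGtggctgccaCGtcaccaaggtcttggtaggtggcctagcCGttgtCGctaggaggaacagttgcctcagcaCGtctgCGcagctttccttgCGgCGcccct
The Phlda2 promoter held 26 CG dinucleotides, the Slc22a18 promoter 2 and the Kcnq1ot1 promoter 9, whereas the median over 32851 promoters of this length was 7. The letters TATAAA occurred 1 time in the Phlda2 promoter and in 13.6% of all promoters, and GGGCGG occurred 2 times there and in 35.7% of all promoters, with both strands searched. Neither occurred in the Slc22a18 or Kcnq1ot1 promoter. CACGTG, found in 7.15% of all promoters, occurred in none of the 3.

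Between 2i-RFP+ and 2i-RFP-, 3 adjacent genes of the Cdkn1c domain, Cdkn1c, Slc22a18 and Phlda2, stood more than 2-fold higher in 2i-RFP+. Cdkn1c encodes p57Kip2, an inhibitor of cyclin-dependent kinases. Its raw intensity was 3532.6 and 3689.7 on the arrays of 2i-RFP+, against 1363.6 and 1429.8 on those of 2i-RFP-. The standard error over the beads of 1 array was between 30.1 and 91.1 in these readings, far less than the gap between the samples. In log2 units Cdkn1c stood at 11.78 in 2i-RFP+ and 10.41 in 2i-RFP-, a 2.59-fold difference, and the 4 pairs of arrays gave log2 differences of 1.29 to 1.46.

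Phlda2 encodes a small pleckstrin homology domain protein that restrains growth of the placenta. Its raw intensity was 2719.3 and 2501.3 in 2i-RFP+, against 1202.6 and 1166.1 in 2i-RFP-, which is 2.20-fold after normalization (11.30 against 10.16 log2 units). Slc22a18 encodes a membrane protein of the organic cation transporter family. It was dimmer, with 140 and 154.5 in 2i-RFP+, against 85.8 and 90.2 in 2i-RFP-, or 6.81 against 5.75 log2 units (2.09-fold). In each of these genes both arrays of 2i-RFP+ stood above both arrays of 2i-RFP-. The pairs of arrays gave log2 differences of 1.04 to 1.24 for Phlda2 and of 0.94 to 1.19 for Slc22a18.

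These 3 of 9 members differed at least 2-fold, against 0.0274% of the 14583 genes detected in either sample (0.0206% higher and 0.00686% lower). The higher share is made up of these 3 genes alone, and the members were chosen with earlier results of these data known. By size the 3 held ranks 2, 3 and 4 among the 14583 genes. Rank 1 was Cuedc2, with raw intensities of 9.6 and 1017.6 on the arrays of 2i-RFP+, against 864 and 914.9 in 2i-RFP-, a difference that rests on 1 array. Next after rank 4 came Ccl4 (0.96), T (0.90), Fgf8 (0.88) and Wnt8a (0.88 log2 units), all higher in 2i-RFP+. By chosen probes, all 4 pairs of arrays were above 0 for 6 of 9 members, against 20% of all genes. They were below 0 for Ascl2 alone, against 17.3%. The 6 include Nap1l4 at 0.08 and Osbpl5 at 0.14, less than the larger difference of their repeat arrays (0.10 and 0.15). With a single sample on each side there is no test, and the arrays repeat the measurement, not the culture. For Slc22a18 the size depended on the probes and background: it was 0.30 log2 units in the deposited log2 table, which averages its detected probe with an undetected one.

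The other members differed far less between both samples. Igf2 differed by 0.25, Osbpl5 by 0.14, Nap1l4 by 0.08, H19 by 0.03 and Tssc4 by -0.02 log2 units. The chosen probe of Ascl2 gave -0.29, lower in 2i-RFP+ on all pairs of arrays. A second detected Ascl2 probe went the other way, at 0.20 and higher in 2i-RFP+ on all pairs, so the direction for Ascl2 depends on the probe. In the annotation, no other protein-coding gene lies between Cdkn1c, Slc22a18 and Phlda2. On the side towards H19 the next measured member is Tssc4, and on the other side Nap1l4 follows directly. A list of 28 genes around both domains, of which 16 were tested, served as the surroundings. Of the 15 detected in either 2i-derived sample, none differed 2-fold, and their log2 differences lay between -0.35 and 0.34 with a median of 0.05. Among them were Cd81, a tetraspanin (0.13), and Cars, a cysteinyl-tRNA synthetase gene past Nap1l4 (0.03). Kcnq1, a potassium channel gene, had no probe with a mean detection p under 0.05 in either 2i-derived sample.

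**Figure D1:**
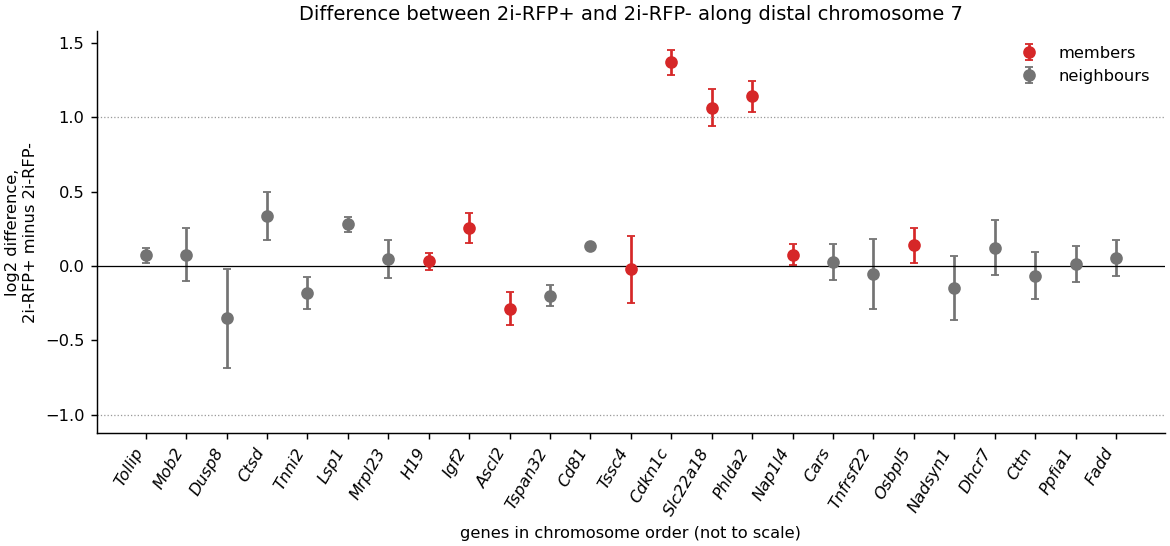
Log2 difference of 2i-RFP+ minus 2i-RFP- for the 9 members (red) and 16 tested neighbours (grey), in chromosome order and not to scale; points are differences of sample values, bars span the 4 pairs of arrays and dotted lines mark 2-fold. Cdkn1c, Slc22a18 and Phlda2 stand above 1, with the lowest pair of Slc22a18 at 0.94, and the genes on both sides lie between -0.35 and 0.34.

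A probe named TSSC8, a name that RefSeq lists as a synonym of Kcnq1ot1, lay outside the choice by name and was looked up for this reason. The files give no sequence for it, so that it measures Kcnq1ot1 rests on the name alone. It was dim but detected on all 6 arrays, with raw intensities of 127.4 and 132.6 in 2i-RFP+ and 166.7 and 161 in 2i-RFP-, against 76.8 in AFF204#21 and 87.6 in R1. The 2i-derived samples were therefore both above the standard-derived lines, and 2i-RFP- was the highest of the 4. The log2 difference of 2i-RFP+ from 2i-RFP- was -0.42, with -0.46 to -0.37 over the pairs of arrays. That of the 2i-derived from the standard-derived group was 1.12 ± 0.22 (SE), with 6.79 ± 0.29 against 5.67 ± 0.22 log2 units (SD, n = 2 each), and limma gave an adjusted p of 0.106. With 4 samples no correlation is given.

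**Figure D2:**
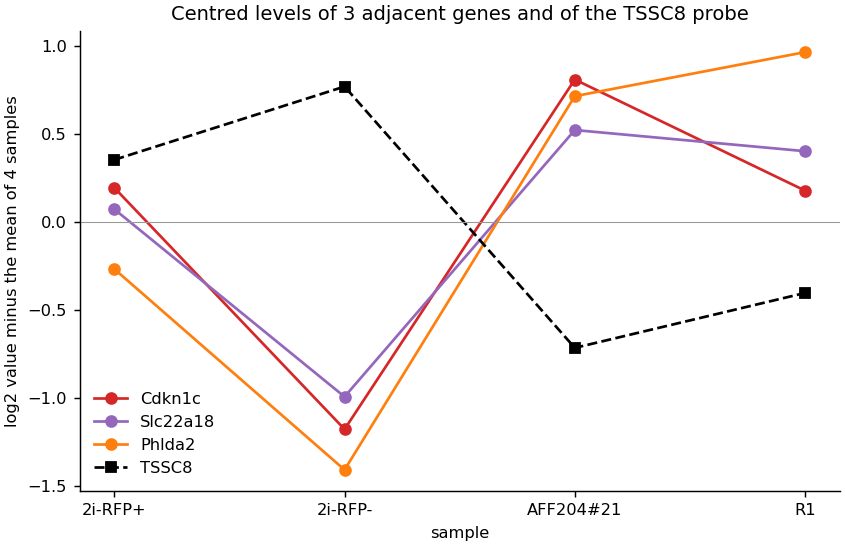
Log2 level minus its mean over the 4 samples, for Cdkn1c, Slc22a18, Phlda2 and the TSSC8 probe, by sample; lines only join points of the same gene. The 3 genes are lowest in 2i-RFP-, where TSSC8 is highest, with 6.99 log2 units against 6.58 in 2i-RFP+.

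The comparison named in the study's design sets the 2i-derived against the standard-derived lines, and there Phlda2 stood furthest apart among the members. Its levels were 11.30 and 10.16 log2 units in 2i-RFP+ and 2i-RFP-, against 12.28 and 12.53 in AFF204#21 and R1. Both 2i-derived samples lay below both standard-derived lines. The log2 difference was -1.68 ± 0.40 (SE), or 3.20-fold lower, and limma over all genes gave an adjusted p of 0.134, above 0.05.

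Slc22a18 followed with 6.81 and 5.75 log2 units in 2i-RFP+ and 2i-RFP-, against 7.26 and 7.14 in AFF204#21 and R1. Here too the groups did not overlap, but 2i-RFP+ was only 0.33 below R1, and the log2 difference was -0.92 ± 0.38 (SE, limma adjusted p = 0.271). Cdkn1c had 11.78 and 10.41 against 12.39 and 11.76. Its groups overlapped, since 2i-RFP+ stood 0.02 log2 units above R1. The difference of -0.98 ± 0.51 (SE, limma adjusted p = 0.348) thus rests on 2i-RFP- and AFF204#21.

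Igf2, the fetal growth factor of the H19 domain, was 12.18 and 11.92 log2 units in 2i-RFP+ and 2i-RFP-, against 13.27 and 12.59 in AFF204#21 and R1. The 2i-derived samples were the lower on every pairing, by 0.41 to 1.35 log2 units. The group difference was -0.88 ± 0.25 (SE, limma adjusted p = 0.168). Osbpl5, whose product moves lipids where the endoplasmic reticulum meets the plasma membrane, had a smaller difference of -0.46 ± 0.16 (SE, limma adjusted p = 0.229), with 8.25 and 8.11 against 8.49 and 8.77.

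By limma 0 of 9 members were called in the 2i-derived lines at an adjusted p under 0.05, against 0.165% of all genes (0.103% higher and 0.0618% lower). At an unadjusted p under 0.05 there were 3, Phlda2, Igf2 and Osbpl5, all lower, against 20.9% of all genes. The groups did not overlap for 6 members, each lower in the 2i-derived lines, against 29.6% of all genes lower, 26.1% higher and 55.7% either way without overlap. These were Phlda2, Slc22a18, Igf2, Osbpl5, Tssc4 and Nap1l4. For Tssc4 and Nap1l4 the log2 differences of -0.09 and -0.05 were smaller than the larger difference of their repeat arrays (0.35 and 0.10). By the second detected Tssc4 probe the groups overlapped. The median log2 difference was -0.46 over the members. The labels do not call the 2i-derived samples separate cultures, while AFF204#21 and R1 are lines that differ in strain and passage. The p-values therefore reflect the spread among these 4 samples alone, which may be technical within the 2i-derived pair. Without AFF204#21 there were 6 called members, against 45.3% of all genes, and without R1 5, against 36.6%, but then the spread comes from the 2i-derived pair alone. Phlda2 was among them both times, with log2 differences of -1.80 and -1.55.

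**Figure D3:**
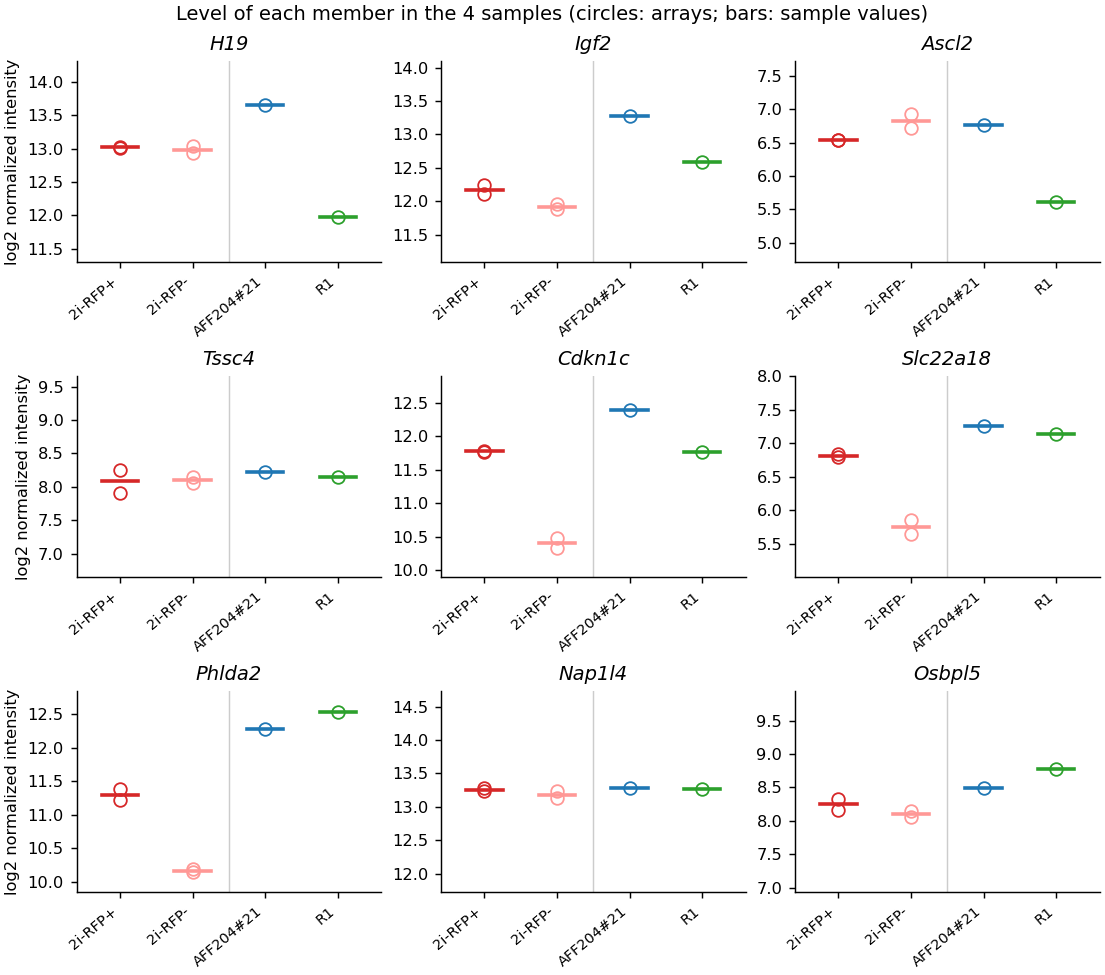
Normalized log2 intensity of the detected probe chosen for each member, by sample, in chromosome order; circles are arrays, bars are sample values, and every panel spans 3 log2 units. 2i-RFP- is lowest for Cdkn1c, Slc22a18 and Phlda2, R1 is lowest for H19 and Ascl2, and Tssc4 and Nap1l4 are level.

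H19, the maternally expressed noncoding RNA of its domain, stood above R1 and below AFF204#21 in the 2i-derived samples. Its brighter probe gave 8502.7 and 8538.5 on the arrays of 2i-RFP+ and 7996.2 and 8322.9 on those of 2i-RFP-, against 12361.6 in AFF204#21 and 4017.7 in R1. In log2 units these are 13.02 and 12.98, against 13.65 and 11.97. The 2i-derived samples were alike and lay between the standard-derived lines, so the group difference of 0.19 ± 0.56 (SE, limma adjusted p = 0.873) averages -0.65 against AFF204#21 and 1.03 against R1. Between the standard-derived lines, AFF204#21 was 3.19-fold higher than R1. The second H19 probe gave a log2 difference of 1.67 there, against 1.68 for the first.

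Ascl2, a transcription factor needed for the trophoblast lineage, shared the low level in R1. Its chosen probe had 6.54 and 6.83 log2 units in 2i-RFP+ and 2i-RFP-, against 6.77 in AFF204#21 and 5.61 in R1. The first 3 samples lay within 0.29 of each other, and AFF204#21 was 2.23-fold higher than R1. A second Ascl2 probe gave 6.73 and 6.53, against 6.61 and 4.84, and was not well above background in R1. The group difference of 0.49 ± 0.42 (SE, limma adjusted p = 0.551) became -0.08 without R1.

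Igf2 did not follow H19 across the lines. It was 1.61-fold higher in AFF204#21 than in R1, but the 2i-derived samples, which held more H19 RNA than R1, held less Igf2 RNA than R1. H19 and Ascl2 were the 2 of 9 members at least 2-fold apart between AFF204#21 and R1, both higher in AFF204#21, against 6.29% of 15288 genes (3.53% higher and 2.77% lower). Ascl2 fell short of 2-fold in the deposited table (0.61 log2 units), without background correction (0.79) and with the mean of probes (0.96). Cdkn1c was 1.55-fold higher in AFF204#21, Phlda2 differed by -0.25 and Slc22a18 by 0.12 log2 units. These lines differ in strain and passage and have 1 array each, and the part of either was not tested.

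**Figure D4:**
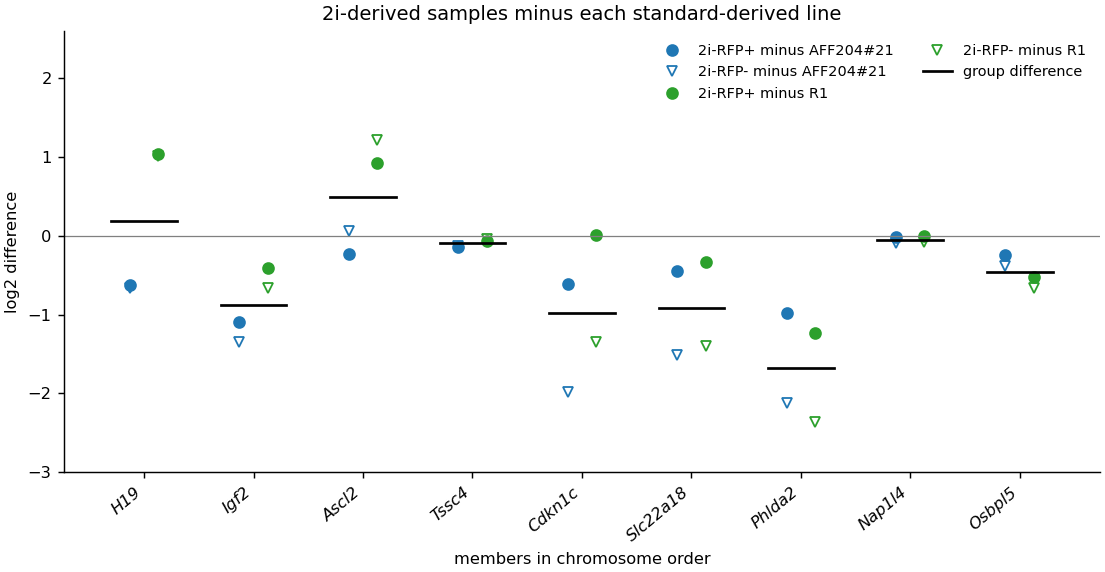
Log2 difference of 2i-RFP+ (filled circles) and 2i-RFP- (open triangles) from AFF204#21 (blue) and from R1 (green) for each member in chromosome order, with the group difference as a black bar. For H19, 2i-RFP+ and 2i-RFP- lie at -0.63 and -0.66 against AFF204#21 and at 1.05 and 1.01 against R1, whereas all 4 values for Phlda2, Igf2 and Slc22a18 lie below 0.

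Set against AFF204#21, the line of the same labelled strain, the 2i-derived mean was 2.93-fold lower for Phlda2, 2.46-fold lower for Cdkn1c and 2.34-fold lower for Igf2. These were 3 of 9 members past 2-fold, all lower, against 4.25% of 15280 genes (2.17% higher and 2.09% lower). Slc22a18 fell just short at 1.97-fold lower. With 2i-RFP+ alone only Igf2 was past 2-fold, at -1.10 log2 units, and Phlda2 had -0.98. Set against R1, Phlda2 was 3.49-fold lower, and Ascl2 and H19 were 2.10-fold and 2.04-fold higher, 3 of 9 members against 8.13% of 15346 genes (4.54% higher and 3.59% lower). Both comparisons use the same 2i-derived samples. By the deposited log2 values, 1 member was past 2-fold against R1.

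By their chosen probes, Tssc4 and Nap1l4 differed among the samples by about as much as repeat arrays or less. Nap1l4, a histone chaperone of the nucleosome assembly family, had 13.26 and 13.18 log2 units in 2i-RFP+ and 2i-RFP-, against 13.28 and 13.26 in AFF204#21 and R1. Its range over the 4 samples was 0.096, and repeat arrays of 2i-RFP- differed by 0.095. Tssc4, known from human cells as an assembly factor of the U5 splicing particle, had 8.08 and 8.10 against 8.23 and 8.15. Repeat arrays of 2i-RFP+ differed by 0.35 for Tssc4, more than its range of 0.15 over the samples. Tssc4 and Nap1l4 lie on opposite sides of the 3 genes that stood apart between 2i-RFP+ and 2i-RFP-.

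The gaps in the order of levels were set against the difference of repeat arrays, which measures the array and not the spread between cultures. Phlda2 and Igf2 had all 3 gaps wider than the larger repeat-array difference of their probes (0.16 and 0.13). Phlda2 was highest in R1 and Igf2 in AFF204#21, and both were lowest in 2i-RFP-. For Cdkn1c only 2i-RFP+ and R1 were not separated, and for Slc22a18 only AFF204#21 and R1. For H19 and Osbpl5 this held for 2i-RFP+ and 2i-RFP-, and for Ascl2 it held for 2i-RFP- and AFF204#21. The repeat differences come from the 2i-derived samples, since the others had 1 array.

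Of the 16 probes, 12 were detected in at least 2 of the 4 samples. The 4 others, a probe each of Slc22a18, Ascl2, Nap1l4 and Osbpl5, were detected on no array, and they lay between 33.8 and 56.1 in raw intensity. The second Tssc4 probe was detected throughout and gave a group difference of -0.05 log2 units, against -0.09 for the first, but it stood 0.29 higher in 2i-RFP+ than in 2i-RFP-, where the first differed by -0.02. With all detected probes fitted as separate rows, the smallest adjusted p among the members was 0.130, for Phlda2 (limma).

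By root mean square difference between centred log2 profiles over the 4 samples, a measure of likeness with no test, the gene nearest to Cdkn1c among 14571 others was Slc22a18, at 0.21. Igf2 ranked 11th at 0.40 and Phlda2 89th at 0.47. The nearest genes outside the domains were Amigo2 (0.37), Nr2c1 (0.37) and Ccno (0.37), on other chromosomes. The genes nearest to H19 were Zfp213 (0.04), Osr2 (0.04) and H2-Q2 (0.06), and Ascl2 ranked 183rd at 0.26. Over 4 samples many genes come close by the same measure.

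Imprinted genes elsewhere in the genome were read from lists by the allele mainly expressed. Of 14 tested genes of the maternal list, 0 were called by limma in either direction, and their median log2 difference of the 2i-derived from the standard-derived group was -0.08. The smallest p belonged to Grb10, an adaptor that restrains insulin and growth factor signalling, with -1.78, and to Ddc (-0.65) and Cobl (-1.41), which lie beside it on chromosome 11. That chromosome had a median of -0.22. In the deposited table Grb10 had -0.73 and Cobl -0.62. The imprinted mouse transcript of Ddc is known as paternally expressed, and with Ddc moved to the other list the medians were -0.02 over 13 maternal and 0.01 over 18 paternal genes. Of 17 tested genes of the paternal list, 0 were called, with a median of 0.04. Peg3, a zinc finger gene, had 2.25, its neighbour Usp29 1.53, Sfmbt2 1.63 and Gab1 -0.60 (Peg3 1.32, Usp29 0.46 and Sfmbt2 1.09 in the deposited table), and the smallest adjusted p was 0.0601 for Peg3 (limma).

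Other lists held 0 called genes each. Among 19 factors of imprint maintenance and DNA methylation, Zfp57, which protects imprints through Trim28, had a log2 difference of -1.07 and Trim28 of -0.32, while Ezh2 of the Polycomb complex had 0.52 (limma adjusted p = 0.0801, 0.0933 and 0.101). Ezh2 had 0.26 in the deposited table. Dppa3, known to protect imprints in the early embryo, had 2.21, with 12.23 and 12.29 log2 units in 2i-RFP+ and 2i-RFP-, against 10.95 and 9.16 in AFF204#21 and R1 (limma adjusted p = 0.157). The list's median was -0.05. Among 18 inhibitors and partners of cyclin-dependent kinases the median was 0.17, with Ccne1 at -0.63, Ccnd1 at -0.34 and Cdk1 at 0.34. Among 16 genes of IGF signalling it was -0.05, with Igfbp6 at -0.76, Igfbp3 at -0.53 and Igf1r at -0.44. None of the tested genes of these lists differed 2-fold between 2i-RFP+ and 2i-RFP-. Among the tested neighbours of the domains, Tnni2 had -0.51, Dhcr7 -0.42 and Tollip -0.27 (limma adjusted p = 0.183, 0.213 and 0.231).

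Markers of other cell types moved alongside some of these values. Fibroblasts also express Igf2, H19 and Cdkn1c, and all lines grew on fibroblast feeders. Of 18 feeder markers 17 were measured, Postn being undetected, and their summed linear level was 18017.4 and 15376 in 2i-RFP+ and 2i-RFP-, against 18837.9 and 23205 in AFF204#21 and R1. In the 2i-derived against the standard-derived group 16 of 17 were below 0, with a median log2 difference of -0.34. That was the direction of Phlda2, Cdkn1c, Slc22a18 and Igf2 too. Without overlap 7 were lower and 1 higher, against 29.6% and 26.1% of all genes. Between 2i-RFP+ and 2i-RFP-, 15 of 17 were above 0, with a median log2 difference of 0.16 and a largest of 0.58 (Prrx1, a mesenchymal homeobox gene), all smaller than those of Cdkn1c, Phlda2 and Slc22a18. The summed feeder level fell from R1 through AFF204#21 and 2i-RFP+ to 2i-RFP-. Phlda2 and Osbpl5 had this same order of samples, and the other members did not. H19 was lowest in R1. Of 10 trophoblast markers 6 were detected in at least 2 samples, and Elf5, Hand1 and Tpbpa in none. Plac1 was detected in AFF204#21 alone, 2.17 log2 units above its reading in R1. The summed level of the 6 was 10551.8 and 11563.8 against 14502.3 and 4538.71. The bright gene Tfap2c contributed most to it, with 13.24 and 13.39 log2 units against 12.91 and 11.58. Group differences were below 0 for 3 of the 6 and above 0 for 3. They were -1.64 for Cdx2 and -2.58 for Krt8, both highest in AFF204#21, and 1.07 for Tfap2c. Krt8 had -1.29 in the deposited table. In AFF204#21 against R1, 5 of the 7 trophoblast markers detected in either were at least 2-fold higher and 0 were lower. Over all genes the shares were 3.53% and 2.77%, and the median log2 difference of the 7 was 2.16. Between 2i-RFP+ and 2i-RFP-, 3 of the 6 were above 0 and 3 below. Eomes had the largest of these differences, 0.79 (6.94 against 6.14 log2 units), with 0.64 to 0.95 over the pairs of arrays. Lama1, Sox7 and Gata6 of the endoderm list had -1.70, 1.09 and -0.62, and Foxa2, Gata4, Afp and Ttr were detected in no sample. Sox17 was detected in R1 alone, where AFF204#21 minus R1 was -0.63. The part of such cells in the members' levels was not tested.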

How the data were processed

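Bead intensities had been summarised per probe and array with GenomeStudio 1.0.6 without normalization, per the file headers, and are linear. The deposited detection score is a fraction from 0 to 1. The deposited count of beads per probe (22 to 72 for the members) and the deposited bead SD of the intensity gave the error within an array. A deposited table of log2 values per target, which matched quantile-normalized log2 intensity averaged over probes and arrays (Pearson r of 1 in every column), served as an alternative. How that table was made is not stated in the sources used here.

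Background correction by detection p, quantile normalization and log2 transformation used neqc (limma 3.58.1 under R 4.3.3, offset 16). Repeat arrays of a sample were averaged. A gene was represented by its brightest probe among those with a mean detection p under 0.05 in at least 2 samples, or in at least 1 of the samples compared where a side held 1 sample. Of 31490 target names 13430 matched a current symbol and 5595 a unique synonym, 25 had become dates or numbers and were left out, and the rest kept the file's name. Groups were compared by limma's moderated two-sided test (lmFit, then eBayes with its trend on mean level). The p-values were adjusted by Benjamini-Hochberg across every gene. This procedure was run on simulated data with 4 independent samples, which cannot show its error rate if the 2i-derived pair is 1 line. Strain and passage were not entered, since either leaves the spread to the 2i-derived pair. Comparisons with 1 sample on a side have no test and count genes at least 2-fold apart. The number of arrays limits the precision.

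The members, gene lists and tests were chosen with earlier results of these data known. Named genes are all members, genes of the list of neighbours, up to 3 genes of every other list by smallest p, and the 3 genes outside the members nearest in profile to Cdkn1c and to H19. Promoters are printed for members past 2-fold between 2i-RFP+ and 2i-RFP-, and that of Kcnq1ot1 was added. Prrx1, Dppa3, Zfp42, Dppa5a, Usp29, TSSC8, Cuedc2, Ccl4, T, Fgf8, Wnt8a, Eomes, Snurf, Snrpn, Mest and Dcn were named after their values were seen. Gene names, chromosomes and gene order come from GRCm38.p6 and the files name no build, so coordinates are given only for the RefSeq promoters. Protein sequences are not used here. Alternatives covered background, scaling, probes, detection filter, the deposited table, the variance prior, each sample left out and both 2i-derived samples counted as 1.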

Additional observations from a re-analysis of the deposited data

How the results depend on the processing

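No paired analysis was possible because the labels give no replicate numbers that the groups share. The number of members called by limma ran from 0 to 6 over fits that left out 1 sample, with 6 without AFF204#21 (H19 then at 1.03 and Ascl2 at 1.07), 5 without R1 and 0 without either 2i-derived sample. It was 0 under the other alternatives. Over all genes the count of calls was 24, with 0 without background correction, with median scaling, with a robust trend, without 2i-RFP+ or 2i-RFP- and with both counted as 1, with 1 for genes detected in all 4 samples, 9 with the mean of probes, 12 in the deposited log2 table, 31 without a detection filter, 48 over probes, and 6596 without AFF204#21 and 5335 without R1. Between AFF204#21 and R1 the members past 2-fold came to 1 in place of 2, with Ascl2 lost, without background correction, in the deposited table and with the mean of probes. Against R1 the 2i-derived mean had 1 in place of 3 in the deposited table and with the mean of probes. Leaving out a 2i-derived sample, an alternative chosen after seeing the data, gave 1 to 4 members past 2-fold against AFF204#21 and 2 to 5 against R1. Between 2i-RFP+ and 2i-RFP- the count was 2 or 3. Signs of the group difference turned for Nap1l4 (0.039 in the deposited table and 0.017 with the mean of probes), for the stem cell marker Sox2 (-0.044 and -0.051), and without R1 for H19 (-0.65) and Ascl2 (-0.084). The cause was not tested.

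Phlda2, Cdkn1c, Slc22a18 and Igf2 were lower in the 2i-derived lines under all 13 alternatives, at -2.25 to -1.11, -1.67 to -0.30, -1.45 to -0.36 and -1.22 to -0.54 log2 units. Their adjusted p ran from 0.00027 to 0.832 for Phlda2 (limma). The difference between 2i-RFP+ and 2i-RFP- ran from 1.29 to 1.46 for Cdkn1c, from 1.04 to 1.24 for Phlda2 and from 0.30 to 1.19 for Slc22a18. Slc22a18, Ascl2 and TSSC8 lay near background, which limits the size of their folds.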

Other observations

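Some imprinted genes outside chromosome 7's distal end also differed between 2i-RFP+ and 2i-RFP-, on a smaller scale. Of 17 tested genes of the paternal list, 12 were lower in 2i-RFP+, with a median log2 difference of -0.11 against 0.003 over all genes. On all 4 pairs of arrays 6 were lower, against 17.3% of all genes, and 1 was higher, against 20%. The 6 include Gab1 at -0.09. The lowest, named after their values were seen, were Snurf and Snrpn, which share a transcript on chromosome 7, Mest, a gene active in mesoderm, and Peg3. Snurf stood at 11.99 log2 units in 2i-RFP+ against 12.55 in 2i-RFP-, Mest at 9.74 against 10.30, Peg3 at 11.49 against 12.01 and Snrpn at 14.32 against 14.74. Their log2 differences were -0.56, -0.56, -0.52 and -0.42, and the ranges over pairs of arrays were -0.78 to -0.34, -0.71 to -0.41, -0.63 to -0.41 and -0.52 to -0.31. None reached 2-fold, and a single sample stood on each side.

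Genes listed as expressed from the maternal allele elsewhere differed both ways between these samples. Of the 14 tested on that list, 4 were higher and 4 lower in 2i-RFP+ on all 4 pairs of arrays, against 20% and 17.3% of all genes, and Ddc was in neither count. The 4 higher include Dcn at 0.26, which is also on the list of feeder markers. Grb10 was the furthest above 0, at 0.41, with 10.58 log2 units in 2i-RFP+ and 10.17 in 2i-RFP-, and Cobl beside it the furthest below, at -0.41. Over the 9 members of the distal domains the root mean square difference between 2i-RFP+ and 2i-RFP- was 0.71 log2 units, against 0.16 over all genes. That value rests on Cdkn1c, Phlda2 and Slc22a18 (1.37, 1.14 and 1.06), while the other members lay between -0.29 and 0.25. Between AFF204#21 and R1 the root mean square difference was 0.76 over the members and 0.55 over all genes.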
